A study of Mus musculus with 6 samples.

Results

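The long intergenic noncoding RNAs (lincRNAs) described here are the rows of the deposited gene table with the biotype lincRNA and at least 300 raw counts summed over the 6 libraries. They were 125 of 5559 lincRNA rows and of 54532 rows in all, and 3849 lincRNA rows had no count. RNA-seq was run on total RNA of freshly isolated femoral bone marrow cells of wild-type mice. The 2 groups were 3 libraries of mice after 4 weeks of hindlimb unloading (suspension that takes body weight off the legs, a model of disuse osteoporosis) and 3 libraries of mice without it. Strain, sex and age were not given in the sources used here. Nothing in the labels ties a replicate to its own animal, and the p-values below therefore cover only the differences among these libraries, which could be technical.

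A lincRNA is a long transcript from between protein-coding genes that is annotated as not translated. Some work as RNA, as Malat1 does in nuclear speckles and Neat1 as the scaffold of paraspeckles, which are bodies that hold proteins and edited RNAs in the nucleus. Others are mainly carriers from which microRNAs or small nucleolar RNAs are cut, and for many only the transcription itself has been recorded. In blood cells, members such as Morrbid and the host of miR-142 are known for acting in myeloid survival and in leukocyte development in mice.

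The members with the best described products are the microRNA hosts, so mature microRNAs that lie on the strand of Mir142hg and Mir17hg are shown first, both arms for Mir142hg and 1 well known arm of each hairpin for Mir17hg, from RefSeq (GRCm38.p6, the patch release of the same assembly as the mm10 of the table). Capitals mark the seed, bases 2 to 8, through which a microRNA pairs with its targets. Within Mir17hg (mm10 chromosome 14, 115042879 to 115046727, plus strand) miR-17-5p and miR-20a-5p share 1 seed and miR-19a-3p and miR-19b-3p share another, and those shown lie in exons of GENCODE M21. Both arms of miR-142a lie in an intron of Mir142hg (chromosome 11, 87755577 to 87757270, plus strand). The RNA libraries counted the hosts, not the mature microRNAs.
mmu-miR-17-5p: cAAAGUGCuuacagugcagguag
mmu-miR-20a-5p: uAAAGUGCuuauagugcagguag
mmu-miR-18a-5p: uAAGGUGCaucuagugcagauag
mmu-miR-19a-3p: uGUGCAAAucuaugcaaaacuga
mmu-miR-19b-3p: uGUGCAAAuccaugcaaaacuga
mmu-miR-92a-3p: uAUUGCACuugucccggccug
mmu-miR-142a-5p: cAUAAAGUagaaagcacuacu
mmu-miR-142a-3p: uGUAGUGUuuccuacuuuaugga

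Promoter sequences, from 250 bases before to 50 after a RefSeq start, are given for the member with the most counts, for a regulator of microRNA decay (1700020I14Rik) and for a pair of members described below (5430401H09Rik, Fam120aos). RefSeq's GRCm38.p6 table held entries for 71 of the 125 members, and Neat1 was not among them. The windows were chr19:5802623-5802922 (minus strand) for Malat1, chr2:119594046-119594345 (plus) for 1700020I14Rik, chr12:32123743-32124042 (minus) for 5430401H09Rik and chr13:48967862-48968161 (plus) for Fam120aos. Capitals mark matches, on either strand, to any of 6 motifs: the TATA box motif TATAAA, the NF-Y motif CCAAT, the Sp1 motif GGGCGG, the Ets motif CCGGAAG, the AP-1 motif TGACTCA and the E-box CACGTG. A pair of GGGCGG matches in the Fam120aos window overlap by 1 base.
Malat1: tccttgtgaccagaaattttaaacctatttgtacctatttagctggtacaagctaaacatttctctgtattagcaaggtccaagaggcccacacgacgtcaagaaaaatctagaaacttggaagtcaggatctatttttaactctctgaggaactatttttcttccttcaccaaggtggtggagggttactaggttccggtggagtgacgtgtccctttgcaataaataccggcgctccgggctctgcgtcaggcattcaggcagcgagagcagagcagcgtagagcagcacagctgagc
1700020I14Rik: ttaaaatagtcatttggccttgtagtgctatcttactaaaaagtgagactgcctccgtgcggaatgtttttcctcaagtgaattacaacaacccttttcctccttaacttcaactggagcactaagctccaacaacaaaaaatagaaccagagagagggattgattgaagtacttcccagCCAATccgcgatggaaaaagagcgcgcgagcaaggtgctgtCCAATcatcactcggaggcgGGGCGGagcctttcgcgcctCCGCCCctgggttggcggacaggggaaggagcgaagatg
5430401H09Rik: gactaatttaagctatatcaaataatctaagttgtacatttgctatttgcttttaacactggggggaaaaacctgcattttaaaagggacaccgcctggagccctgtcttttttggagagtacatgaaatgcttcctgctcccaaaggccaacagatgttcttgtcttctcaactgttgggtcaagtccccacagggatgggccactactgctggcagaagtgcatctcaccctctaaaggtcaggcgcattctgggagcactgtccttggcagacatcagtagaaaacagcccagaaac
Fam120aos: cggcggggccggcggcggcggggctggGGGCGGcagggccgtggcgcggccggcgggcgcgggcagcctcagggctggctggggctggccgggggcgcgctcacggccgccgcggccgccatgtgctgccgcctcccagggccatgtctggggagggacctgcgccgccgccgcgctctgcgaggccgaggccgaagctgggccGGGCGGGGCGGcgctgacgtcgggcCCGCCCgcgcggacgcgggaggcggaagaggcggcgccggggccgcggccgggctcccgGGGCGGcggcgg

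These windows differed in base composition, with 86.7% G or C for Fam120aos, 47.0% for Malat1 and 46.3% for 5430401H09Rik, beside a median of 52.7% over all 32851 promoters of the table. The Fam120aos window held 5 matches to GGGCGG, and those of Malat1 and 5430401H09Rik held none of the 6 motifs. Over the 96 promoter entries of members, GGGCGG was in 21.9% against 35.7% of all promoters, TATAAA in 6.25% against 13.6% and CCGGAAG in 13.5% against 8.86%. CCAAT was in 38.5% against 37.4%, TGACTCA in 6.25% against 5.20% and CACGTG in 5.21% against 7.15%. Of the 96 entries, 13 belong to 5430401H09Rik, of which the one nearest its deposited start is printed; 10 of the 13 hold CCAAT and none the other motifs. Over the remaining 83 entries the shares were 25.3% for GGGCGG, 7.23% for TATAAA, 15.7% for CCGGAAG, 32.5% for CCAAT, 7.23% for TGACTCA and 6.02% for CACGTG. A match is a string of letters and not a measured binding site.

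Library totals ran from 15850986 to 16543465 counts after unloading and from 16727836 to 17775506 in controls. Summed neutrophil markers, the defining genes of most marrow cells, were at 52931 to 64710 CPM (library-scaled counts, TMM) in unloaded and 56672 to 64999 CPM in control libraries, and skeletal muscle markers at 1.05 to 2.35 and 1.14 to 2.11 CPM. The unloaded 1 library stood apart: its score on principal component 1 was -51.3, with 7.37 to 13.7 for the rest, and 0.439% of its counts were mitochondrially encoded, against 1.05% to 1.27%. The part of these differences in the results was not tested, and several named results are given with and without unloaded 1.

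Malat1 and Neat1, neighbours on chromosome 19, took 31.3% of the 310766 counts of the 125 members, and the 12 members with the most counts took 67.1%. The members held 87.05% of all lincRNA counts, and 47 of them had a sum of at least 1000. The median sum was 669, and 78 members were under 1000. Every member had counts in all 6 libraries, the lowest being 24 counts in 1 library. Levels spanned a wide range below a few very abundant transcripts.

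**Figure D1:**
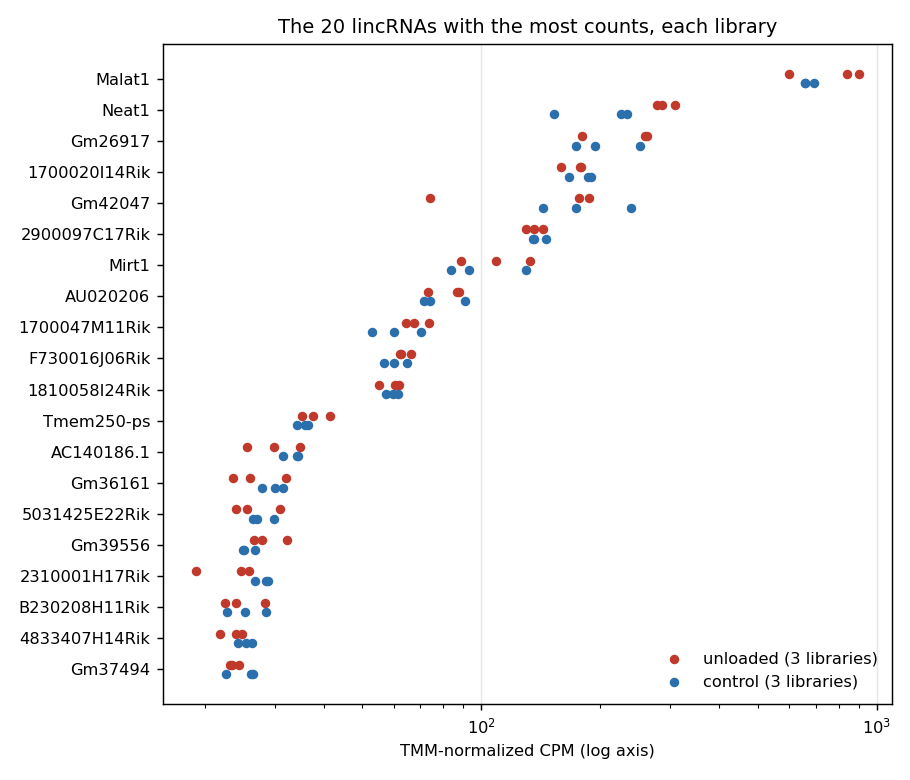
TMM-normalized CPM (log axis) of the 20 lincRNAs with the most counts, 1 row each, with 3 points per group and unloaded drawn above control. Malat1 lies between 599 and 903 CPM in every library, Neat1 is the only row of the first 12 in which unloaded and control points do not overlap, and Gm42047 has 1 unloaded library at 74.2 CPM.

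Malat1 (ENSMUSG00000092341, chromosome 19, 5795690 to 5802672, minus strand) had 903, 843 and 599 CPM in unloaded libraries 1 to 3, against 694, 658 and 658 CPM in control libraries 1 to 3. The unloaded libraries held both its highest values and its lowest. Its mean was 782 ± 161 CPM after unloading and 670 ± 20.3 CPM in controls (SD, n = 3), with a log2 fold change of 0.22 ± 0.15 (SE; edgeR adjusted p = 0.896). It was 0.38 without unloaded 3, at an unadjusted p of 0.00789 from edgeR, and 0.11 without unloaded 1. At 104 RPKM (CPM divided by the deposited gene length in kilobases) it was also the highest member per length. The median member was at 2.74 RPKM, and the median of 12499 tested protein-coding genes was 6.65 RPKM, a level that 33 of the 125 members exceeded.

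The order changed when length was taken into account. Gm26917 (chromosome 17, 39843013 to 39846341, plus strand), a predicted gene at a locus known for a ribosomal RNA precursor copy, Rn45s, followed Malat1 at 66.2 RPKM. The share of ribosomal RNA reads in its count was not tested. Mir142hg came next at 50.5 RPKM, although its 1362 counts placed it far down by counts, since its deposited length is 269 bases. Gm42047 (29.3 RPKM), 2900097C17Rik (28.0 RPKM) and AU020206 (25.3 RPKM) followed. Neat1, with a length of 20771 bases, was at 11.9 RPKM and ranked 24.

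Gm26917 had 259, 263 and 180 CPM in unloaded libraries, against 194, 252 and 173 CPM in controls, which overlapped. Oip5os1, listed in the table as 1700020I14Rik and known as Cyrano, directs the decay of miR-7. It had 159, 179 and 178 CPM in unloaded libraries, against 186, 167 and 189 CPM in controls. The groups overlapped and the 6 values lay close together. For Norad, listed as 2900097C17Rik, a noncoding RNA that binds Pumilio proteins and is known for keeping chromosome number stable, the values were 143, 130 and 136 CPM after unloading and 146, 135 and 136 CPM in controls. With a coefficient of variation (CV) of 4.26% over the 6 libraries it was the steadiest member.

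Mirt1 was first named for its rise in the infarcted mouse heart. It had 89.0, 133 and 109 CPM in unloaded libraries and 83.9, 93.1 and 130 CPM in controls, overlapping. Its span holds 4833407H14Rik on the opposite strand, a member at 24.8, 23.9 and 21.8 CPM in unloaded and 25.4, 24.2 and 26.3 CPM in control libraries, and the strand setting of the counting was not given in the sources used here, so reads of these overlapping genes cannot be assigned with certainty. The next members by counts, whose function is not recorded in the files, were AU020206 (82.6 ± 8.18 CPM after unloading and 78.8 ± 10.6 CPM in controls), 1700047M11Rik (68.5 ± 4.84 and 61.2 ± 8.81 CPM in the same order) and F730016J06Rik (63.8 ± 2.13 and 60.5 ± 4.07 CPM; SD, n = 3). Each overlapped between the groups.

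1810058I24Rik had 59.2 ± 3.51 CPM in unloaded and 59.5 ± 1.96 CPM in control libraries (SD, n = 3), and Tmem250-ps 38.1 ± 3.24 and 35.5 ± 1.15 CPM. RefSeq lists 1810058I24Rik also as Stmp1, a gene known to encode a short mitochondrial protein, and Tmem250-ps is named a pseudogene, so the biotype of the table does not show that a member is untranslated. Prr33, a proline-rich protein by name, is a member as well. In GENCODE M21 all 125 members were present, 120 with the same start and end, and 2 carried another biotype.

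Together the 125 members made up 0.332%, 0.336% and 0.298% of the counts of unloaded libraries 1 to 3, against 0.287%, 0.291% and 0.320% in controls. Group means were 0.322% ± 0.0206 after unloading and 0.300% ± 0.0180 in controls (SD, n = 3), and the ranges overlapped. Without Malat1 and Neat1 the other 123 members held 0.214% ± 0.00565 and 0.213% ± 0.0146.

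**Figure D2:**
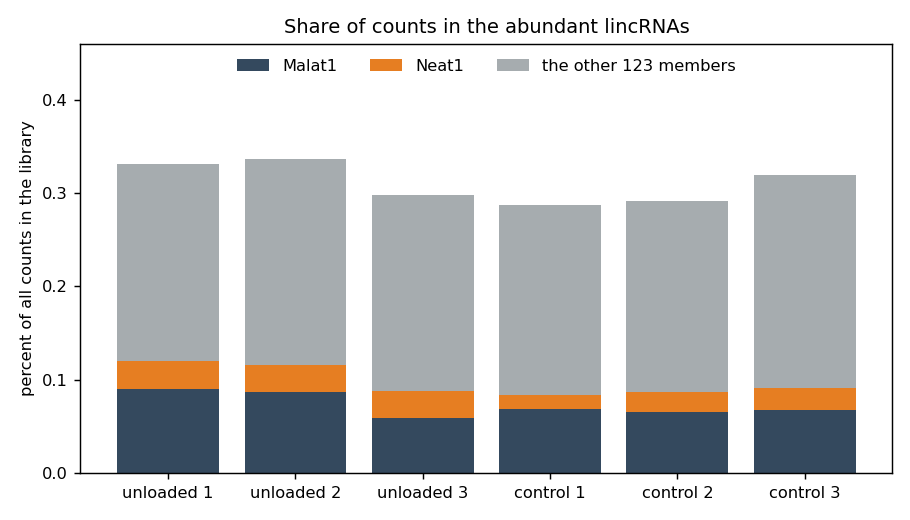
Percent of all counts of each library taken by Malat1, Neat1 and the other 123 members, stacked, with the unloaded libraries on the left. Totals lie between 0.287% and 0.336%, and the Neat1 segment is 0.0285% to 0.0306% in unloaded and 0.0150% to 0.0238% in control libraries.

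Unloaded marrow was set against control marrow to see which of these transcripts differ after 4 weeks without weight bearing. By edgeR's quasi-likelihood test no member was called: 0 of 125 were at an adjusted p under 0.05, the smallest being 0.724, and the test called 0 of 15015 genes (0.0%). With 3 libraries per group this does not show that no member differs. At an unadjusted p under 0.05 there were 6 members, 2 higher (Neat1, 5430401H09Rik) and 4 lower (Fam120aos, Gm39321, 5430425K12Rik, Gm36723). That is 4.80% of the members, against 5.85% of all genes tested, so the share was not above the background. Over all genes the shares were 2.67% higher and 3.18% lower. At an adjusted p under 0.05 DESeq2 called 0 of the 125 members and 0.253% of all genes, and limma-voom called 0 members. At an unadjusted p under 0.05 each of these methods had 7 members. The share of all genes at that unadjusted p was not taken from either, so these counts have no background beside them.

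Fold changes of the members were small and lay on both sides of 0. The median log2 fold change was 0.019 and that of all tested genes 0.0054, with 65 members positive and 60 negative. The quartiles were at -0.13 and 0.18, and at -0.13 and 0.14 for all tested genes. The range was -0.72 to 0.62, and 118 members were within 0.5 of 0. In 10 members (8.0%) the unloaded and control values did not overlap, 4 above and 6 below, beside 11.9% of all tested genes, 5.45% above and 6.41% below. These 10 were the 6 named above and 4 named after their values were seen: 2310001H17Rik (log2 -0.27 ± 0.14) and Gm43660 (-0.26 ± 0.22) on the lower side, Gm20300 (0.21 ± 0.22) and Gm26792 (0.42 ± 0.23) on the higher. Without unloaded 1, its lowest library, 2310001H17Rik was at -0.14, and without control 1 Gm20300 was at 0.068. Gm26792, with 496 counts in all, overlaps Cuedc2 on the opposite strand, which had 7832. The strand setting was not given, so the counts of Gm26792 cannot be assigned to it with certainty.

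**Figure D3:**
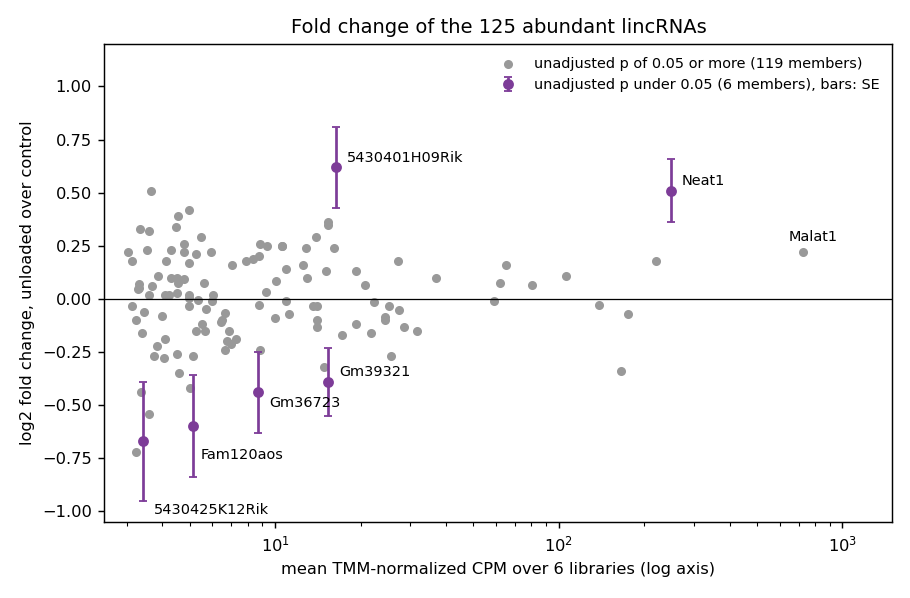
Log2 fold change (unloaded over control) of the 125 members against their mean TMM-normalized CPM over 6 libraries (log axis), with the 6 members at an unadjusted p under 0.05 in purple with their SE. Points spread around 0 at all levels, from -0.72 to 0.62, and Neat1 is the 1 purple point above 100 CPM.

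Neat1 (ENSMUSG00000092274, chromosome 19, 5824708 to 5845478, minus strand) had 309, 278 and 287 CPM in unloaded libraries 1 to 3, against 153, 226 and 234 CPM in control libraries 1 to 3. All unloaded values lay above all control values, and control 1 was the lowest. The mean was 291 ± 15.5 CPM after unloading and 204 ± 44.8 CPM in controls (SD, n = 3). The log2 fold change was 0.51 ± 0.15 (SE; unadjusted p = 0.00659, edgeR adjusted p = 0.724), so it did not pass. It was 0.34 without control 1, 0.47 without unloaded 1 and up to 0.62 without control 3. With no low-count filter the edgeR adjusted p was 0.0134, and 0.671% of all genes were then called. That fit gave Neat1, Gm42047 and 2900097C17Rik the same SE, 0.13. With the filter their SE were 0.15, 0.3 and 0.1, so the unfiltered SE did not follow the spread of these genes. Over 1 start site Neat1 makes a short and a long isoform, and the long one is the paraspeckle scaffold, but the table gives 1 count for both.

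Genes of the nuclear proteins that bind such RNAs were read beside Neat1. Of the 16 on the list of paraspeckle and nuclear retention proteins, 7 were positive and 9 negative, with a median log2 fold change of -0.03, 0 at an unadjusted p under 0.05 and 0 without overlap. Nono, a core paraspeckle protein gene, was at 271 ± 11.4 CPM in unloaded and 261 ± 18.7 CPM in control libraries, and its partner gene Sfpq at 534 ± 36.2 and 509 ± 39.2 CPM (SD, n = 3). These values overlapped. The nearest protein-coding gene of Neat1, Frmd8 at 4224 bases, was at 132 ± 24.9 and 135 ± 13.3 CPM, also overlapping.

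Cell type markers were read between these groups too, and no gene of these lists was at an adjusted p under 0.05 by edgeR. Of 12 marker lists, 2 had summed levels that did not overlap, where 11.9% of all tested genes taken singly did not. Plasmacytoid dendritic cell markers lay at 442 to 492 CPM in unloaded and 511 to 545 CPM in control libraries, with 1 of 6 genes lower at an unadjusted p under 0.05, beside 3.18% of all genes. Megakaryocyte and platelet markers lay at 73.4 to 91.5 and 104 to 109 CPM, with 5 of 7 tested genes lower. No marker of these 2 lists was at 0. Among lists whose sums overlapped, erythroid markers lay at 5181 to 7187 CPM in unloaded and 4318 to 5221 CPM in control libraries with 4 of 9 genes higher at that p, beside 2.67% of all genes, and B lineage markers at 572 to 787 and 771 to 884 CPM with 4 of 10 lower. Monocyte and macrophage markers lay at 1269 to 2066 and 1306 to 1432 CPM, with 3 of 10 higher and 2 lower, and T cell markers at 70.5 to 113 and 59.5 to 78.5 CPM with 2 of 8 higher. NK cell markers had 1 gene higher, neutrophil markers 1 lower and the other lists 0. The part of these markers in the values of Neat1 or any other member was not tested. In bulk RNA, fewer cells of a type and less RNA per cell cannot be told apart.

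5430401H09Rik (ENSMUSG00000112071, chromosome 12, 32096613 to 32123702, minus strand), a transcript with no recorded function in the files, had 20.7, 22.8 and 16.2 CPM in unloaded libraries, against 13.8, 10.2 and 14.9 CPM in controls. Every unloaded value was above every control value, although unloaded 3 and control 3 lay close. Means were 19.9 ± 3.38 and 13 ± 2.43 CPM (SD, n = 3), a log2 fold change of 0.62 ± 0.19 (unadjusted p = 0.00686, edgeR adjusted p = 0.724). It was 0.59 without unloaded 1. Its nearest protein-coding gene, Prkar2b at 35317 bases, had a log2 fold change of -0.11 ± 0.15.

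Fam120aos (ENSMUSG00000097059, chromosome 13, 48968287 to 48972031, plus strand) starts head to head with the protein-coding gene Fam120a, 270 bases away on the other strand. The GC-rich window printed above is cut around a RefSeq start 175 bases from the deposited one, which lies outside it. It had 2.86, 4.88 and 4.50 CPM in unloaded libraries, against 6.11, 6.20 and 6.27 CPM in controls. The controls were nearly equal and all above the unloaded libraries, of which unloaded 1 was the lowest. The log2 fold change was -0.60 ± 0.24 (unadjusted p = 0.0321, edgeR adjusted p = 0.805), and Fam120a itself was at 287 ± 35.3 CPM after unloading and 316 ± 14.5 CPM in controls (SD, n = 3; log2 -0.14 ± 0.12). Without unloaded 1 the log2 fold change of Fam120aos was -0.40, at an unadjusted p of 0.0850 from edgeR.

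Gm39321 (ENSMUSG00000111167, chromosome 9, 42141993 to 42146506, plus strand) had 11.6, 13.8 and 14.7 CPM in unloaded libraries, against 17.2, 15.3 and 20.1 CPM in controls. Its log2 fold change was -0.39 ± 0.16 (unadjusted p = 0.0363, edgeR adjusted p = 0.809). The nearest protein-coding gene, Sorl1 at 17696 bases on the other strand, was at 990 ± 5.71 CPM after unloading and 1094 ± 90.8 CPM in controls (SD, n = 3), and its groups did not overlap either, at an unadjusted p of 0.198 from edgeR.

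Gm36723 (chromosome 12, 25303940 to 25471979, plus strand) had 6.36, 8.47 and 7.40 CPM in unloaded libraries, against 9.31, 9.81 and 11.0 CPM in controls, with a log2 fold change of -0.44 ± 0.19. 5430425K12Rik (chromosome 13, 80940411 to 80948597, plus strand) had 2.04, 3.00 and 2.90 CPM, against 3.31, 3.91 and 5.39 CPM in controls, with -0.67 ± 0.28. Both had an edgeR adjusted p of 0.816. Their nearest protein-coding genes overlapped between the groups: Id2, which lies 206800 bases from Gm36723 and encodes an inhibitor of helix-loop-helix factors, had -0.30 ± 0.24, and Arrdc3, 44369 bases from 5430425K12Rik, -0.20 ± 0.15. Without unloaded 1 none of the 4 lower members stayed at an unadjusted p under 0.05 by edgeR, the values being 0.0850 for Fam120aos, 0.0776 for Gm39321, 0.0998 for 5430425K12Rik and 0.0904 for Gm36723, and their log2 fold changes were -0.40, -0.29, -0.51 and -0.34. The loss was not particular to that library. Without control 3 none stayed either, at 0.069, 0.165, 0.175 and 0.128 in the same order. The log2 fold changes were then -0.59, -0.28, -0.45 and -0.37.

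**Figure D4:**
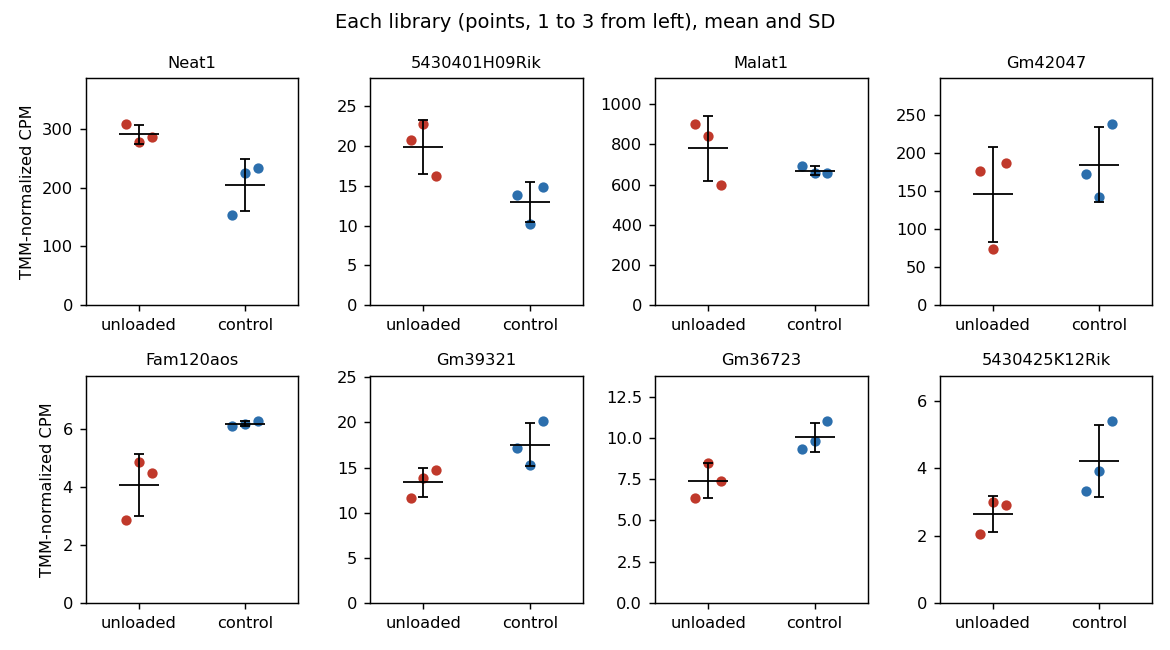
TMM-normalized CPM of 8 members in each library, with unloaded left of control and the mean and SD as black bars (n = 3). Neat1 and 5430401H09Rik have all unloaded points above the controls, the 4 members of the lower row have them below, and Malat1 and Gm42047 overlap.

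Without unloaded 1, 7 members were at an unadjusted p under 0.05, 5 higher and 2 lower, or 5.60% beside 8.98% of all genes tested. Snhg12 then had the smallest p. This host gene of small nucleolar RNAs, which guide the chemical marking of ribosomal RNA, had 13.1, 20.1 and 18.6 CPM in unloaded libraries, against 12.2, 13.2 and 15.2 CPM in controls. The unloaded 1 value lay within the controls and the other two above them. The log2 fold change was 0.35 ± 0.18 with all libraries and 0.51 ± 0.14 without unloaded 1 (edgeR adjusted p = 0.883 and 0.345).

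On the list of small nucleolar RNA hosts, 14 of 21 genes were tested, 4 of them members. Of the 14, 12 were positive and 2 negative with a median log2 fold change of 0.22, beside 0.0054 over all tested genes, and 0 were called. In 1 of the 14, Snhg15, the groups did not overlap, with 7.06, 6.70 and 6.22 CPM in unloaded libraries against 4.28, 5.90 and 4.98 CPM in controls, beside 5.45% of all genes without overlap on the higher side. Snhg17, a host that the table classes as a processed transcript, was the 1 gene at an unadjusted p under 0.05, beside 5.85% of all genes. It overlapped, with 22.6 ± 2.56 CPM in unloaded and 16.4 ± 3.05 CPM in control libraries (SD, n = 3; log2 0.46 ± 0.16, edgeR adjusted p = 0.801). Among members, Snhg6 had 10.9 ± 2.30 and 11.0 ± 1.63 CPM, Snhg20 4.98 ± 0.534 and 4.91 ± 1.05 CPM and Epb41l4aos 5.95 ± 0.890 and 6.01 ± 2.62 CPM, all overlapping. Gas5, a growth-arrest transcript of the same kind that is no member, had 73.8, 128 and 130 CPM in unloaded and 95.8, 103 and 113 CPM in control libraries, with unloaded 1 again lowest.

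The microRNA hosts did not separate the groups. Mir142hg, whose microRNA is restricted to blood cells, had 14, 16.8 and 9.49 CPM in unloaded libraries, against 13.4, 16.1 and 11.8 CPM in controls. Mir17hg, the host of a cluster needed for early B cell development in mice, had 9.48, 13.9 and 16.5 CPM, against 12.1, 12.7 and 12.5 CPM in controls. Its controls were close together while its unloaded libraries held the lowest and the highest values. The log2 fold change of Mir17hg was 0.1 ± 0.2, and 0.29 without unloaded 1. The other hosts tested on that list, which are no members, were Dleu2 (65.0 ± 7.93 CPM after unloading and 62.3 ± 4.56 CPM in controls) and Mir22hg (18.9 ± 8.59 and 24.2 ± 0.463 CPM; SD, n = 3). Mir22hg was at 9.16 CPM in unloaded 1 and at 22 CPM or more in the others. The list also held Mirt1 and Mirt2 by name, which are not counted as hosts here, and 0 of its 6 tested genes were at an unadjusted p under 0.05 by edgeR.

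Among lincRNAs described in immune and blood cells, Gm14005 is the mouse Morrbid, which represses the death gene Bcl2l11 in short-lived myeloid cells. It had 12.1, 13.2 and 14.2 CPM in unloaded libraries, against 11.4, 11.4 and 12.5 CPM in controls, and the groups overlapped at unloaded 1. Lockd, transcribed downstream of the cell cycle inhibitor gene Cdkn1b, was at 13.9 ± 2.09 CPM after unloading and 11.8 ± 1.07 CPM in controls (SD, n = 3). Dubr was put on the same list, although nothing here shows a role of it in blood cells. It was at 13.4 ± 2.23 CPM after unloading and 14.7 ± 2.44 CPM in controls (SD, n = 3). On that list 7 of 15 genes were tested, 5 positive and 2 negative, with Neat1 the 1 gene at an unadjusted p under 0.05. Redrum, an erythroid lincRNA of mice, was at 5.33 ± 1.66 and 5.36 ± 1.10 CPM. Its log2 fold change was -0.0047 ± 0.28, and 0.23 without unloaded 1, its lowest library.

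On the list of nuclear and architectural RNAs 11 of 28 symbols were matched and tested, 6 positive and 5 negative with a median of 0.055, and 4 were members. Some of the 28 symbols name the same gene. The list held 1700020I14Rik only as Cyrano and Oip5os1, which were not matched, so this member (log2 -0.069 ± 0.1) is not in these counts. Ftx, a transcript of the X-inactivation centre, had the most negative fold change of these members. It was at 8.46, 13.8 and 17.4 CPM in unloaded libraries, against 13.2, 16.9 and 19.7 CPM in controls. The low unloaded value came from unloaded 1, and the log2 fold change of -0.32 ± 0.25 was -0.085 without it. Without unloaded 3, the highest of that group, it was -0.57, at an unadjusted p of 0.0424 from edgeR. Xist, the RNA that coats the inactive X chromosome, was not a member, with 1 to 6 counts per library. Meg3, Miat and H19 also fell below the threshold, with sums of 20, 4 and 4 counts.

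Libraries differed in how far their members strayed. For each member, log2 CPM in a library was set against the mean of the other 5 libraries. The SD of these deviations over the 125 members was 0.465 in unloaded 1, 0.306 in unloaded 2 and 0.270 in unloaded 3, against 0.308, 0.311 and 0.283 in control libraries 1 to 3. In unloaded 1, 29 members deviated by more than 0.5, 19 of them lower and 10 higher, beside 9 to 17 members in the other libraries. The same library had the largest SD over all tested genes, 0.510 against 0.347 to 0.374.

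**Figure D5:**
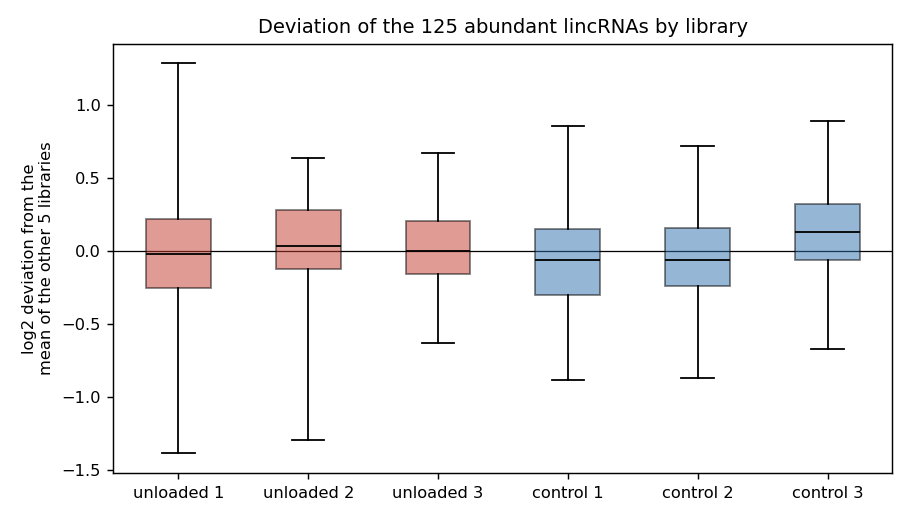
Log2 deviation of the 125 members in each library from the mean of the other 5 (box: quartiles, line: median, whiskers: lowest and highest), unloaded libraries on the left. The medians lie between -0.06 and 0.13, and unloaded 1 has the widest whiskers, from -1.38 to 1.28.

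The 4 members with the largest single deviations were Platr7, 1700096K18Rik, Gm42047 and Gm26762. Platr7, named for its expression in pluripotent cells, was at 2.67 CPM in unloaded 1 and 6.20 to 8.69 CPM in the others. 1700096K18Rik was at 1.59 CPM there and 2.68 to 5.24 CPM in the others, while Gm26762 was at 7.19 CPM there and 2.40 to 3.43 CPM in the others. All of these values come from 1 library, and without it the log2 fold change was 0.25 for Platr7 (-0.11 ± 0.35 with it), 0.071 for 1700096K18Rik (-0.27 ± 0.38) and -0.086 for Gm26762 (0.51 ± 0.38). Gm26762, with 360 counts in all, overlaps Gpi1 on the opposite strand, which had 111715. The strand setting was not given, so the counts of Gm26762 cannot be assigned to it with certainty. Gm42047 (chromosome 8, 121833247 to 121841178, plus strand) had 177, 74.2 and 187 CPM in unloaded libraries, against 173, 143 and 239 CPM in controls, so its low value came from unloaded 2. Its log2 fold change was -0.34 ± 0.30, and -0.029 without that library.

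Depth limited the smaller members more than the large ones. The counting error of a library's value, from the mean count, was 13.5% for A530013C23Rik, with a sum of 327 counts, and 0.909% for Malat1. The CV over the 6 libraries had a median of 18.1% and ran up to 49.1%, for Gm26762. It was above the counting error in 122 members, over 2 times in 68 and over 5 times in 5. Gm42047 had a CV of 33.0% at a counting error of 1.90%, so its spread was not set by depth.

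The members were longer than the other lincRNA rows with a count. Their median deposited length was 2846 bases (269 to 20771), against 1237 bases for 1585 rows below the threshold, and the rule favours long genes since these collect more reads. The nearest protein-coding gene lay at a median of 4224 bases, against 11057 bases below the threshold, and 32.0% of members, against 28.5%, had one within 1000 bases. Head-to-head starts within 1000 bases were found for 11 members (8.80%), against 9.65%, among them Fam120aos with Fam120a, 5031425E22Rik with Kmt2e and AI480526 with Setd1b. Chromosomes 1, 5 and 10 held 11 members each, and 7 lay on chromosome 19. Spans of 51 members (40.8%) overlapped another gene with counts, against 30.7% below the threshold. In GENCODE M21 17 members had only single-exon transcripts. These are descriptions of a set chosen by its counts.

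Just inside the threshold were 1700086O06Rik, Gm32856 and Gm26617, with sums of 315, 313 and 301 counts. Just outside were Gm44751, 1700027J07Rik and Gm38171, with 293, 289 and 283. Gm44751 had 101, 36 and 55 counts in unloaded libraries, against 29, 33 and 39 in controls, with its highest value in unloaded 1.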

How the data were processed

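Whole-number counts per gene in 6 libraries were used as deposited, unnormalized. Per the labels' protocols, TRNzol served for extraction and a NEBNext Ultra kit for the libraries. The submitters' processing notes list CASAVA, HISAT2 2.0.5, featureCounts 1.5.0-p3 and mm10. Strand setting, annotation release and treatment of multi-mapping reads were not given in the sources used here. Gene lengths were used as the authors deposited them.

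Genes were filtered by edgeR's filterByExpr, scaled by TMM and tested by glmQLFit and glmQLFTest (edgeR 4.0.16, R 4.3.3) over 15015 genes, with Benjamini-Hochberg adjustment and a threshold of 0.05. All 125 members passed this filter, so none was lost to it. Levels are TMM-normalized CPM, and each SE was derived from the fold change and its F statistic. Principal components used a prior count of 2, and deviations an offset of 0.1. The code was tested on simulated data. No 2 libraries were alike to within counting noise: the 15 pairs had a chi-square of 6.64 to 34.3 times its degrees of freedom.

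Groups came from the titles. Named genes were the 12 members with the highest mean CPM, the 6 highest per length, all at an unadjusted p under 0.05 with their nearest protein-coding gene, the 4 with the largest deviation in 1 library, 3 on each side of the threshold, and members of the fixed lists. Others were named after their values were seen. The members and lists were chosen with earlier results of these data known. Alternatives were DESeq2 1.42.0, limma-voom 3.58.1, scaling by RLE or the upper quartile, other filters, removal of the 20 genes with the most counts, a replicate block, each library left out and other thresholds of membership. Members that overlap no other gene, and promoter shares without the member with the most entries, were added as alternatives after seeing the data. Each SD and SE covers the spread among these libraries, and the counting errors cover depth only.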

Additional observations from a re-analysis of the deposited data

How the results depend on the processing

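Over all genes edgeR called 0, against 35 by DESeq2, 183 with no low-count filter, 1 with the replicate block and 0 to 5 with 1 library left out (5 without unloaded 1). The count of members at an adjusted p under 0.05 was 0 in every fit but that with no low-count filter, where it was 1 (Neat1). Members at an unadjusted p under 0.05 numbered 6, and 3 (without control 1) to 10 (without unloaded 3) with 1 library left out. The share of all genes tested moved too, from 5.85% with all libraries to 8.98% without unloaded 1. It is not given for the other fits with 1 library left out, so these counts are no result about the members. With a threshold of 100 counts there were 270 members, 15 at an unadjusted p under 0.05 and a median log2 fold change of 0.075, and with 1000 counts 47 members, 3 and 0.065. These stand beside the 5.85% of all genes tested with all libraries. The median, 0.019 for the 125 members, ran from -0.0078 to 0.067 with 1 library left out, and was 0.011 over members that overlap no other gene. The difference in the share of counts, 0.022 percentage points, was 0.010 to 0.034 under the alternatives. Of 288 log2 fold changes of 36 named genes under 8 other settings, 283 kept their sign. Those that did not were 1810058I24Rik (0.011), Snhg6 (0.0059) and Epb41l4aos (0.0045) with upper-quartile scaling, and Epb41l4aos with limma-voom (0.083) and the replicate block (0.061). The cause was not tested. With 1 library left out, 14 of them changed sign: 1810058I24Rik (-0.044 to 0.04), Platr7 (-0.44 to 0.25), 1700096K18Rik (-0.52 to 0.071), Gm26762 (-0.086 to 0.79), Prkar2b (-0.22 to 0.067), Snhg6 (-0.17 to 0.14), Snhg20 (-0.13 to 0.17), Epb41l4aos (-0.29 to 0.35), 2900097C17Rik (-0.063 to 0.0086), Mirt1 (-0.051 to 0.32), Frmd8 (-0.19 to 0.072), Mir142hg (-0.23 to 0.16), Mir17hg (-0.09 to 0.29) and Dubr (-0.26 to 0.0099). Deviations from the group means correlated at 0.0309, -0.0633 and 0.0185 between libraries of the same number, and at -0.088 to 0.0939 between libraries of different numbers. Not every library correlated best with its own number. With 3 libraries per group these values cannot show whether libraries of the same number belong together. Depth limits members near the threshold, and 3 libraries per group limit all.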
